A study of Mus musculus with 6 samples.

Results

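The genes described here are 9 negative feedback genes of MAP kinase signalling: the dual-specificity phosphatase genes Dusp1, Dusp2, Dusp4, Dusp5, Dusp6, Dusp10 and Dusp16, and the Sprouty genes Spry1 and Spry2. They were chosen by gene symbol, with earlier results of these data known. All 9 were found among the 18288 gene rows of the deposited RNA-seq table. They were measured in mouse CD8+ T cells, the lymphocytes that kill infected and tumour cells, activated in vitro and profiled at day 2. The libraries fall into 3 labelled Nae1T-KO and 3 labelled Nae1WT, and all 6 hold cells activated in culture. The Nae1 product is a subunit of the NEDD8 E1 enzyme, which starts neddylation, the transfer of a small ubiquitin-like protein to cullins and other targets. The sources used here do not give the allele, the cells in which Nae1 was deleted, the driver of the deletion, the strain, the age of the mice or the activating agent.

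MAP kinases relay T cell receptor and cytokine signals through a chain of kinases that ends in ERK, JNK or p38. The DUSP phosphatases listed here, also called MAP kinase phosphatases, remove phosphate from both the threonine and the tyrosine that activate these kinases. Sprouty proteins act further upstream and restrain the Ras to ERK branch. Many of these genes are themselves induced by MAP kinase activity, so that their transcripts form a negative feedback loop and are often read as a trace of recent signalling.

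The 6 libraries held 15628252 to 25444653 reads assigned to genes. Values are normalized counts, which are reads divided by 1 size factor per library. Nae1, the targeted gene, had 390.3, 338 and 367 normalized counts across Nae1T-KO replicates 1 to 3, against 1601, 1806 and 1882 across Nae1WT replicates 1 to 3. Both sexes were present, although no label states sex: Nae1T-KO replicates 1 and 2 and Nae1WT replicate 3 held 14225 to 20518 normalized counts of Xist, the RNA of the inactive X chromosome, and the other 3 held at most 4.04 and expressed Y-linked genes. Differences between libraries of the same sex are therefore given for each of the 9 genes below. The 9 CD8 T cell markers (Cd8a, Cd8b1, Cd3e and others) summed to 42512 to 43618 normalized counts in Nae1T-KO and 45383 to 49174 in Nae1WT. Markers of myeloid and dendritic cells, 7 of 12 of them with a row in the table, summed to 76.1 to 137 in Nae1T-KO and 19.9 to 34.4 in Nae1WT, at levels far below the CD8 markers but with no overlap between the groups. The 8 CD4 T cell markers summed to 772 to 1427 in Nae1T-KO and 491 to 876 in Nae1WT, and the 8 B cell markers to 206 to 550 in Nae1T-KO and 227 to 357 in Nae1WT. The 7 erythroid markers summed to 243 to 2116 in Nae1T-KO and 156 to 809 in Nae1WT, and the 3 of 6 NK and gamma-delta T cell markers with a row to 14.1 to 34.3 in Nae1T-KO and 22.0 to 28.2 in Nae1WT. These 4 sums overlapped between the groups, while the CD8 sums, lower in Nae1T-KO, did not. Log2 fold changes, from the test given below, were above 0 for 8 of 8 tested CD4 markers (median 0.58). The same was so for 6 of 6 tested erythroid markers (median 0.84) and 4 of 6 tested B cell markers (median 0.62). None of these CD4, erythroid and B cell markers was called. The 2 tested myeloid and dendritic markers were above 0 (median 1.44), and 1 of them was called higher. The 1 tested NK and gamma-delta T cell marker had 0.04 and was not called. Of 9 CD8 markers, 2 were above 0 (median -0.13), with 1 called higher and 2 lower. No marker of these lists with a row was at 0 in more than 1 library. The part of these other cells in the results below was not tested, and in bulk RNA fewer cells of a type and less RNA per cell cannot be told apart. The labels call the samples biological replicates but do not say whether each came from its own mouse or culture. Each group held libraries of both sexes, so its libraries did not all come from the same mouse. Libraries of the same sex may still share a mouse or culture. Each p-value reflects only the spread among these 6 libraries, part of which may be technical.

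All 9 feedback genes had a higher mean in Nae1T-KO than in Nae1WT, and 5 of them passed the test. The genes that rose were Dusp16, Dusp6, Dusp5, Dusp1 and Spry1, by 1.40-fold to 1.85-fold, and none was called lower. Spry2, Dusp4, Dusp10 and Dusp2 did not pass, with log2 fold changes of 0.52, 0.53, 0.31 and 0.19. The test was limma on log2(normalized count + 1), two-sided, with Benjamini-Hochberg adjustment over the 13819 genes tested and a call at an adjusted p under 0.05. Fold changes are on this scale. All 9 genes passed the filter on low values, a normalized count of at least 10 in at least 3 libraries, and each did so in both groups. Among all tested genes, 6.53% were called higher in Nae1T-KO and 6.18% lower, 12.7% in all, and 5 of 9 called higher is a larger share. The 9 genes were chosen with earlier results of these data known, so this comparison cannot serve as a test of the set. A log2 fold change above 0 was seen for 49% of all tested genes. The median log2 fold change was 0.53 over the 9 genes and -0.01 over all tested genes. The 5 called genes are also the 5 whose groups did not overlap, which was so, in the higher direction, for 16.7% of all tested genes. The summed level of the 9 genes was 10657, 11437 and 10722 normalized counts in Nae1T-KO libraries, against 7205, 7798 and 7970 in Nae1WT libraries.

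**Figure D1:**
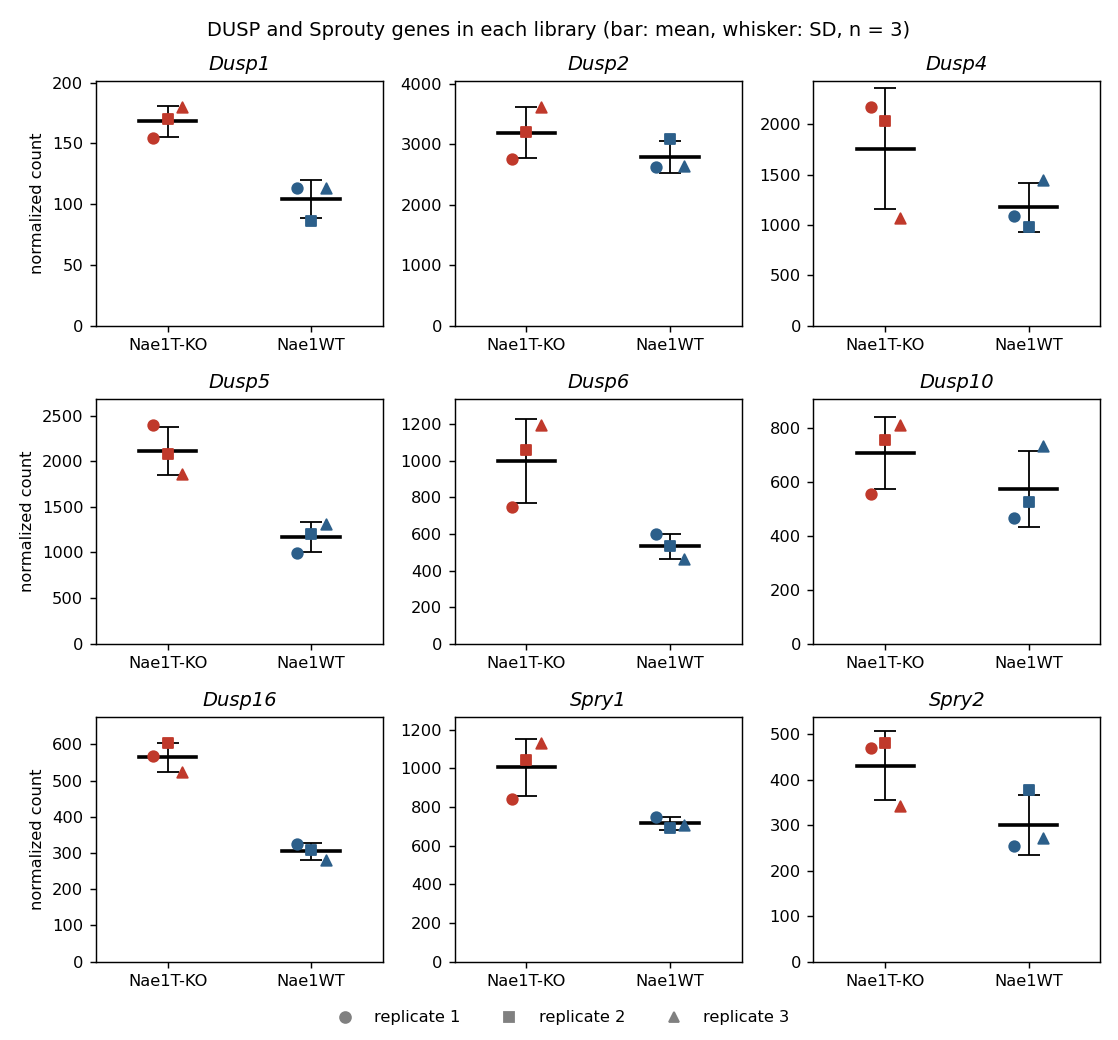
Normalized counts (vertical axes, starting at 0) of the 9 DUSP and Sprouty genes in each of 3 Nae1T-KO and 3 Nae1WT libraries. The bar is the mean, the whisker the SD, and the marker shape the replicate number, which was not taken to pair the groups. The Nae1T-KO points lie above all Nae1WT points for Dusp1, Dusp5, Dusp6, Dusp16 and Spry1, and overlap with them for Dusp2, Dusp4, Dusp10 and Spry2.

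Among the inducible phosphatases of the nucleus, Dusp5 and Dusp1 rose in Nae1T-KO, while Dusp4 and Dusp2 did not pass. The windows of 250 bases before the annotated transcription start of Dusp1 and Dusp5 are printed because these are the 2 genes, both called higher, with more than 1 match to the motifs searched. The RefSeq promoter table of GRCm38.p6 gave such a window for 8 of the 9 genes, all but Dusp4. On either strand, the search covered the cyclic AMP response element (CRE) TGACGTCA, its core TGACG, the AP-1 motif TGANTCA, the CArG box that serum response factor binds, and the antioxidant response element TGACNNNGC. The core lies within the full CRE and is counted again in it. Capitals mark every match.
Dusp1 promoter, chr17:26508473-26508722, minus strand: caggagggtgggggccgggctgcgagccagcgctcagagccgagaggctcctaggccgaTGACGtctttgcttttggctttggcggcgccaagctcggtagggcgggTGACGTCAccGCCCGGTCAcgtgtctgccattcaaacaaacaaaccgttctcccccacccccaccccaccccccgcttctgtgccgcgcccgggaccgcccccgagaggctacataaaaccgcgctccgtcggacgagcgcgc
Dusp5 promoter, chr19:53528895-53529144, plus strand: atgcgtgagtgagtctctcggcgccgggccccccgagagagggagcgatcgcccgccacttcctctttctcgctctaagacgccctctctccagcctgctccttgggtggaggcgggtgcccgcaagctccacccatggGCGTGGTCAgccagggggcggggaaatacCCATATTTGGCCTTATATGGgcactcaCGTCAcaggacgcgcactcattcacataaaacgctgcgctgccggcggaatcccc

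The Dusp5 window held 2 CArG boxes side by side, at bases 82 to 73 and 72 to 63 before the start, and a CArG box was found in 1.47% of 32851 promoter windows of the same length. It also held a CRE core at bases 55 to 51, which 17.8% of windows hold. The Dusp1 window held a full CRE at bases 143 to 136, found in 1.55% of windows, and a separate core at bases 191 to 187. Both windows held 1 antioxidant response element, found in 10.2% of windows. The AP-1 motif, present in 6.75% of windows, was in none of the 8. The Dusp16 window, chr6:134792629-134792878 on the minus strand, precedes a transcription start that lies inside the gene's annotated span, and it held 1 CRE core, at bases 70 to 66. The windows of Dusp2, Dusp6, Dusp10, Spry1 and Spry2 held no match. A match describes these letters only and is not a measured binding site.

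Dusp5, an ERK-selective phosphatase that also holds ERK in the nucleus, had 2393, 2079.8 and 1863 normalized counts across Nae1T-KO replicates 1 to 3, against 988, 1204 and 1311 across Nae1WT replicates 1 to 3. The lowest Nae1T-KO library stood well above the highest Nae1WT library. The means were 2112 ± 267 in Nae1T-KO and 1168 ± 164 in Nae1WT (SD, n = 3 each), a log2 fold change of 0.86 ± 0.12 (SE; limma, adjusted p = 0.00208). For the 4 pairings of a Nae1T-KO and a Nae1WT library of the same sex, log2 differences were 0.63 to 0.91. Dusp5 lies on chromosome 19 from 53529145 to 53541809 on the plus strand of GRCm38.p6.

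Dusp1, the immediate early phosphatase of p38, JNK and ERK, was by count the least abundant of the 9. It had 154, 170.1 and 179.7 normalized counts across Nae1T-KO replicates 1 to 3, against 113.0, 85.7 and 113 across Nae1WT replicates 1 to 3. The 3 Nae1T-KO values lay close together and above all Nae1WT values. The log2 fold change was 0.70 ± 0.16 (SE; limma, adjusted p = 0.0185), and it rested on 138 to 193 reads in each Nae1T-KO library, against 82 to 149 in each Nae1WT library. The same-sex differences were 0.44 to 1.06. The call ended without Nae1T-KO replicate 2 (0.69, adjusted p = 0.0590) and without Nae1WT replicate 2 (0.56, adjusted p = 0.0689). The gene lies on chromosome 17 from 26505591 to 26508472 on the minus strand.

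Dusp4, an inducible nuclear phosphatase, was split within Nae1T-KO. It had 2171, 2036 and 1069 normalized counts across Nae1T-KO replicates 1 to 3, against 1088, 985 and 1452 across Nae1WT replicates 1 to 3. Nae1T-KO replicates 1 and 2 were above every Nae1WT library, and replicate 3 was below 2 of the 3. The fit gave a log2 fold change of 0.53 (95% interval -0.27 to 1.34; limma, adjusted p = 0.339). Without Nae1T-KO replicate 3 it was 0.86 and passed (adjusted p = 0.0149, and 0.0149 to 0.876 over the alternatives). It was 0.35 without Nae1T-KO replicate 1 (adjusted p = 0.555), while a sex term gave 0.29 (adjusted p = 0.117). The 3 libraries high in Xist were also the 3 with the most Dusp4: between females the log2 difference was 0.58 and 0.49, and between males -0.02 and 0.12. Whether the response differs by sex was not tested. Its locus is on chromosome 8 from 34807610 to 34819894 on the plus strand.

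Dusp2, a nuclear phosphatase first described in activated T cells and also known as PAC-1, was the most abundant of the 9. It had 2754, 3206 and 3608 normalized counts across Nae1T-KO replicates 1 to 3, against 2617, 3087 and 2639 across Nae1WT replicates 1 to 3. The groups overlapped, since the highest Nae1WT library exceeded the lowest Nae1T-KO library. The log2 fold change was 0.19 (95% interval -0.04 to 0.42; limma, adjusted p = 0.248). It was 0.29 without Nae1T-KO replicate 1 and 0.10 without replicate 3, and did not pass in either. Dusp2 lies on chromosome 2 from 127336159 to 127338377 on the plus strand.

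Dusp6, the cytoplasmic phosphatase that acts on ERK, rose in Nae1T-KO. It had 746, 1058 and 1195 normalized counts across Nae1T-KO replicates 1 to 3, against 602, 534 and 463 across Nae1WT replicates 1 to 3. The groups did not overlap, although Nae1T-KO replicate 1 stood closer to the highest Nae1WT library than to the next library of its own group. The means were 999.6 ± 230.0 in Nae1T-KO and 533 ± 69.4 in Nae1WT (SD, n = 3 each), a log2 fold change of 0.89 ± 0.17 (SE; limma, adjusted p = 0.0111). The same-sex differences were 0.69 to 1.19. The call ended without Nae1T-KO replicate 2 (0.83, adjusted p = 0.0565) and without Nae1WT replicate 2 (0.89, adjusted p = 0.0553). The gene lies on chromosome 10 from 99263231 to 99267489 on the plus strand and overlaps the long noncoding RNA gene Gm34921 in the annotation, so reads of the overlap could be shared.

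**Figure D2:**
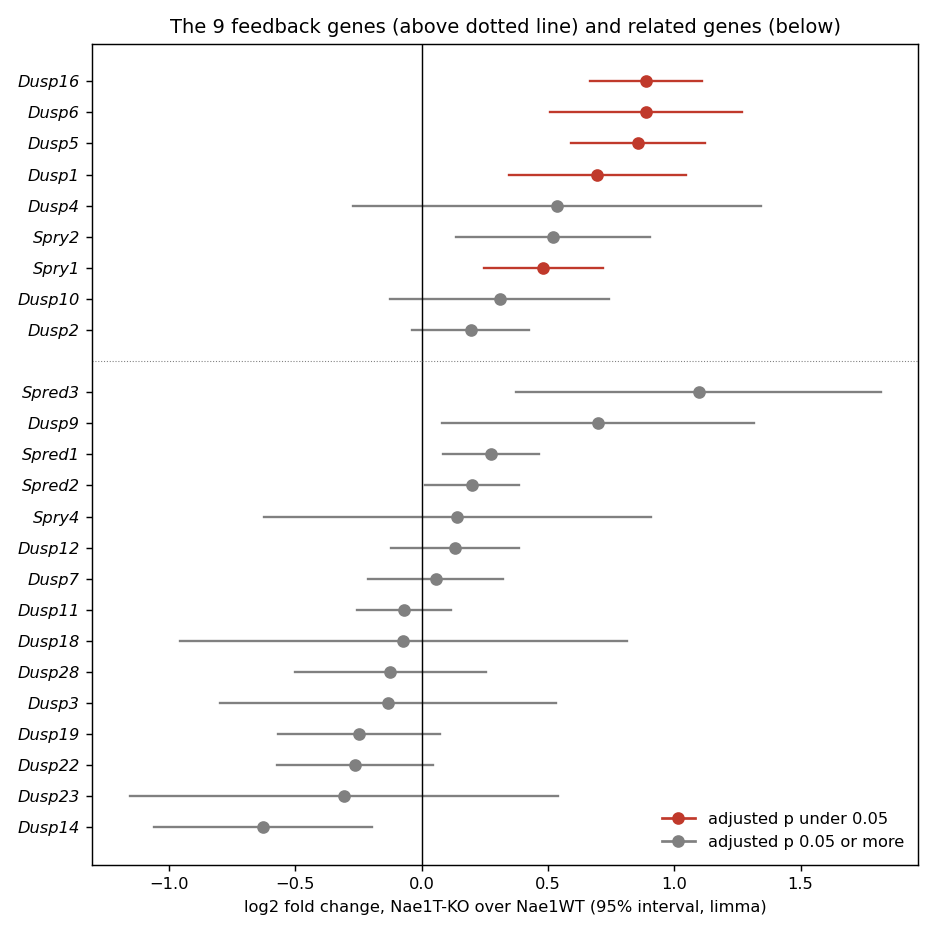
Log2 fold change of Nae1T-KO over Nae1WT with its 95% interval (horizontal axis, limma) for the 9 feedback genes above the dotted line and for tested other DUSP, Sprouty and Spred genes below it; red marks an adjusted p under 0.05. All 9 estimates above the line are positive, from 0.19 for Dusp2 to 0.89 for Dusp6 and Dusp16, and no gene below the line passed.

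Of the phosphatases that act mainly on JNK and p38, Dusp16 rose and Dusp10 did not pass. Dusp16 had 569, 603 and 523 normalized counts across Nae1T-KO replicates 1 to 3, against 325, 309 and 280.2 across Nae1WT replicates 1 to 3. Both groups were tight and far apart. The means were 565 ± 40.0 in Nae1T-KO and 305 ± 22.9 in Nae1WT (SD, n = 3 each), a log2 fold change of 0.89 ± 0.10 (SE; limma, adjusted p = 0.000720), the smallest adjusted p of the 9 genes. The same-sex differences were 0.68 to 1.10. Dusp16 lies on chromosome 6 from 134715468 to 134807063 on the minus strand and overlaps the long noncoding RNA genes Gm36328 and 1700055D16Rik. Dusp10 had 556, 758 and 811 normalized counts across Nae1T-KO replicates 1 to 3, against 465, 526 and 733 across Nae1WT replicates 1 to 3. Its groups overlapped, with Nae1WT replicate 3 among the Nae1T-KO values. The log2 fold change was 0.31 (95% interval -0.12 to 0.74; limma, adjusted p = 0.321). Same-sex differences took both signs, from -0.40 to 0.80. The estimate was 0.47 and 0.20 without Nae1T-KO replicate 1 or 3, and 0.17 and 0.50 without Nae1WT replicate 1 or 3, and it passed in none of these. Dusp10 lies on chromosome 1 from 184034381 to 184075636 on the plus strand.

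Of the Sprouty genes, Spry1 rose and Spry2 did not pass. Spry1 had 843, 1046 and 1129.9 normalized counts across Nae1T-KO replicates 1 to 3, against 751, 689.9 and 706 across Nae1WT replicates 1 to 3. Every Nae1T-KO library was above the narrow range of the Nae1WT libraries. The log2 fold change was 0.48 ± 0.11 (SE; limma, adjusted p = 0.0164). Same-sex differences ran from 0.26 to 0.71. The call ended without Nae1T-KO replicate 2 (0.45, adjusted p = 0.0565), without Nae1WT replicate 2 (0.46, adjusted p = 0.0608) and also without Nae1WT replicate 3 (0.47, adjusted p = 0.0571). Spry1 lies on chromosome 3 from 37639947 to 37644599 on the plus strand.

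Spry2 had 471, 480.3 and 343 normalized counts across Nae1T-KO replicates 1 to 3, against 255, 377 and 273 across Nae1WT replicates 1 to 3. Nae1WT replicate 2 was above Nae1T-KO replicate 3, so the groups overlapped. Same-sex differences took both signs here too, from -0.14 to 0.82. The log2 fold change was 0.52 (95% interval 0.13 to 0.90; limma, adjusted p = 0.0764). It passed without Nae1T-KO replicate 3 (0.68, adjusted p = 0.0252), without Nae1WT replicate 2 (0.69, adjusted p = 0.0307) and in DESeq2 on whole reads (0.52, adjusted p = 0.0291), with 0.0252 to 0.318 over the alternatives. With a sex term the Spry2 estimate was 0.47 and did not pass (limma, adjusted p = 0.126). Without Nae1T-KO replicate 3, the Nae1T-KO libraries left were all high in Xist, while Nae1WT held both sexes. Spry2 lies on chromosome 14 from 105891947 to 105896819 on the minus strand.

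The genes did not vary together within Nae1T-KO. Replicate 3 was the highest Nae1T-KO library for 5 genes, Dusp1, Dusp2, Dusp6, Dusp10 and Spry1, and the lowest for the other 4, Dusp4, Dusp5, Dusp16 and Spry2. Replicate 1 was the lowest for the same 5 genes for which replicate 3 was the highest. Replicate 3 was also the only Nae1T-KO library low in Xist, so its differences from replicates 1 and 2 cannot be told apart from sex. The fold between the highest and the lowest Nae1T-KO library was 2.03 for Dusp4, 1.60 for Dusp6 and 1.15 for Dusp16. Among the Nae1WT libraries it was 1.58 for Dusp10 and 1.09 for Spry1. Of the 9 genes, 6 were higher in Nae1T-KO in all 4 pairs of libraries of the same sex: the 5 called genes and Dusp2. The Dusp2 differences were 0.06 to 0.46. For the 5 called genes this had to be so, because their groups did not overlap. The 4 pairs share libraries, and the share of all tested genes with this pattern was not computed.

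**Figure D3:**
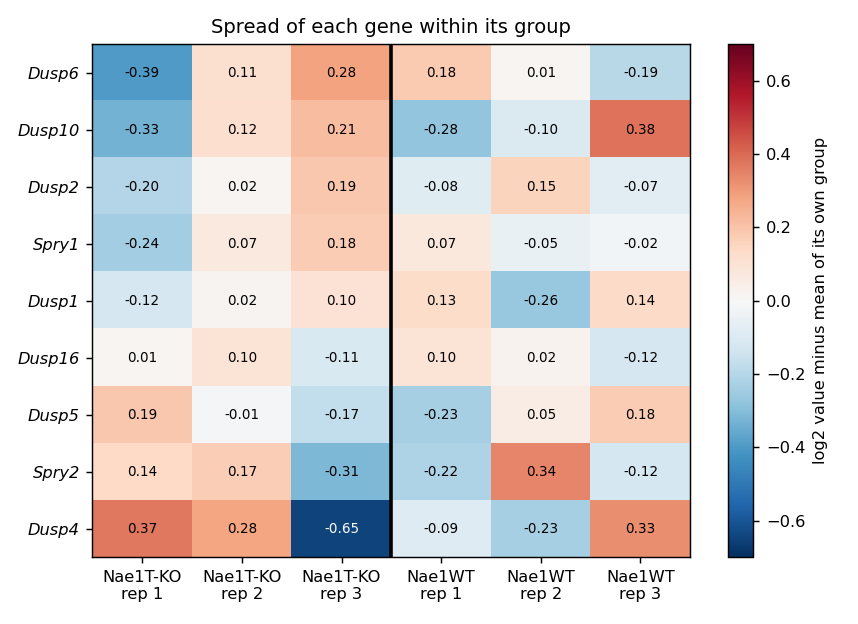
Log2(normalized count + 1) of each gene in each library minus the mean of its own group, with Nae1T-KO libraries left of the black line and Nae1WT libraries right of it; rows are ordered by Nae1T-KO replicate 3. In that library the values run from 0.28 for Dusp6 to -0.65 for Dusp4, while Dusp16 stays between -0.12 and 0.10 in all 6 libraries.

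Ratios between genes within a library do not depend on scaling between libraries, and 4 pairs of related genes were compared this way. The log2 ratio of Dusp5 to Dusp6 was 1.68, 0.97 and 0.64 in the Nae1T-KO libraries, against 0.72, 1.17 and 1.50 in the Nae1WT libraries. The spread within each group covered the other group's mean, and the difference between the groups was -0.03 (exact permutation test, two-sided, p = 0.9). The ratio of Dusp10 to Dusp16 was -0.03, 0.33 and 0.63 in Nae1T-KO, against 0.51, 0.76 and 1.38 in Nae1WT, a difference of -0.58 (exact permutation p = 0.2), which was -0.33 without Nae1WT replicate 3. The difference for Dusp2 to Dusp4 was -0.34 (exact permutation p = 0.5), and ran from -0.76 without Nae1T-KO replicate 3 to -0.05 without Nae1T-KO replicate 1. It was -0.04 for Spry1 to Spry2 (exact permutation p = 0.9). Adjusted over the 4 pairs, p was 0.8 to 0.9, and 3 libraries against 3 cannot go below 0.1, so these data do not show that any gene of a pair changed more than the other.

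To compare levels between genes, normalized counts were divided by exon length in kilobases, taken from the GENCODE M21 transcripts that match RefSeq. Dusp2 was the most abundant per kilobase in both groups, with 1972 ± 264 in Nae1T-KO and 1720 ± 164 in Nae1WT (SD, n = 3 each), and no other gene's libraries reached its range. Dusp5 came next with 854 ± 108 per kilobase in Nae1T-KO and 472 ± 66.5 in Nae1WT, overlapping with Dusp4 at 642 ± 219 in Nae1T-KO and 429 ± 89.6 in Nae1WT. Spry1 followed with 404 ± 59.1 per kilobase in Nae1T-KO and 287 ± 12.8 in Nae1WT. In Nae1T-KO the ranges of neighbouring genes overlapped from Dusp5 down to Spry2, and in Nae1WT Spry1 stood apart from both of its neighbours. Dusp6 and Dusp10 held different places: 358 ± 82.3 for Dusp6 and 254 ± 48.2 for Dusp10 per kilobase in Nae1T-KO, and 191 ± 24.8 for Dusp6 and 206 ± 50.3 for Dusp10 in Nae1WT, with overlapping libraries in each group. Dusp16 and Dusp1 were lowest per kilobase, at 111 ± 7.83 and 84.4 ± 6.44 in Nae1T-KO, where their libraries did not overlap, and 59.7 ± 4.49 and 52.3 ± 7.97 in Nae1WT, where they did.

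The pattern of Dusp16, whose estimate was the largest of the called genes, was compared with 9112 other genes of at least 100 normalized counts on average. Dusp6 had the same log2 fold change to 2 decimals, 0.89, and was the larger of the 2 in edgeR, DESeq2 and limma-voom and with a sex term, so the choice between them is within the error. By root mean square difference of centred log2 values over the 6 libraries, the nearest were Arid5b, Ticam1, Dap, Mapkbp1 and Perp, at 0.06 to 0.09. None of these 5 is among the 9 genes. The nearest of the other 8 was Dusp5 at 0.20, and the farthest was Dusp10 at 0.43. No called gene of the 9 was lower, so no pattern was followed in that direction.

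Other genes of MAP kinase signalling were taken from 5 lists, and their counts are set beside the same 6.53% called higher and 6.18% called lower among all tested genes. Of 17 other DUSP genes, 11 were tested, and 0 were called by limma, with a median log2 fold change of -0.12. Before adjustment, limma's p was under 0.05 for 2 of the 11, Dusp9 (log2 fold change 0.70, adjusted p = 0.127) and Dusp14 (-0.63, adjusted p = 0.0599). Of these 11, edgeR, DESeq2 and limma-voom on whole reads also called 0. Among 16 tested inhibitors of Ras and ERK signalling outside the 9, 2 rose and 0 fell, with a median of 0.14. Nf1, which encodes the Ras GTPase-activating protein neurofibromin, had 475 ± 34.6 normalized counts in Nae1T-KO, against 333 ± 33.1 in Nae1WT (SD, n = 3 each), for a log2 difference of 0.51 (limma, adjusted p = 0.0124). Rasa2, another Ras GTPase-activating protein gene, rose by 0.31 (limma, adjusted p = 0.0325). Spred1, whose product is related to Sprouty, had 0.27 and did not pass (limma, adjusted p = 0.0621). Spred3, of the same family, had 1.10 at a mean of 18.6 normalized counts and did not pass either (adjusted p = 0.0518). With 9.82 and 9.41 in Nae1WT replicates 1 and 2, Spred3 met the filter of 10 through Nae1T-KO, where it was high, and would not have on Nae1WT alone. Spred2 and Spry4 had 0.20 and 0.14 (adjusted p = 0.147 and 0.693). Of Spry4, Spred1, Spred2 and Spred3, limma called 2 with total-count scaling, 1 with pseudocount 5 and 1 with a sex term.

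Among 24 tested genes of the Ras to ERK cascade, 4 rose and 0 fell, with a median log2 fold change of 0.06. Sos1, a Ras exchange factor gene, rose by 0.43 (limma, adjusted p = 0.0126), Grb2, which encodes the adaptor that recruits SOS1, by 0.29 (adjusted p = 0.0187) and Map2k2, which encodes the ERK kinase MEK2, by 0.28 (adjusted p = 0.0192). Mapk3, which encodes ERK1, had 461 ± 45.8 normalized counts in Nae1T-KO, against 325 ± 61.2 in Nae1WT (SD, n = 3 each), for a log2 difference of 0.52 (limma, adjusted p = 0.0392). Of these called genes and those of the preceding lists, each lost its call in some alternatives: Nf1 in 2 of 19, Sos1 in 3, Map2k2 in 6, Grb2 in 7, and Rasa2 and Mapk3 in 8 each.

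In the JNK and p38 cascades, 3 of 23 tested genes rose and 0 fell, with a median log2 fold change of 0.16. Map2k3, a kinase gene upstream of p38, had 2609, 2818 and 3084 normalized counts across Nae1T-KO replicates 1 to 3, against 1601, 1771 and 1785 across Nae1WT replicates 1 to 3. The groups stood far apart, with a log2 fold change of 0.72 ± 0.08 (SE; limma, adjusted p = 0.000668). Mapk9, which encodes JNK2, rose by 0.38 (adjusted p = 0.0193), a call lost in 5 of 19 alternatives. The third was Gadd45a, a stress-induced gene, at 47.2 ± 14.6 normalized counts in Nae1T-KO, against 12.3 ± 3.36 in Nae1WT (SD, n = 3 each). Its log2 fold change was 1.85 (limma, adjusted p = 0.00561). It rested on 36 to 57 reads in each Nae1T-KO library, against 9 to 15 in each Nae1WT library. Gadd45a had only 9.41 normalized counts in Nae1WT replicate 2. The gene met the filter on low values through Nae1T-KO, where it was high, and would not have on Nae1WT alone. Gadd45a was not followed over the 19 alternatives. Its level was below the 50 normalized counts set for naming, and it was named after its values were seen.

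**Figure D4:**
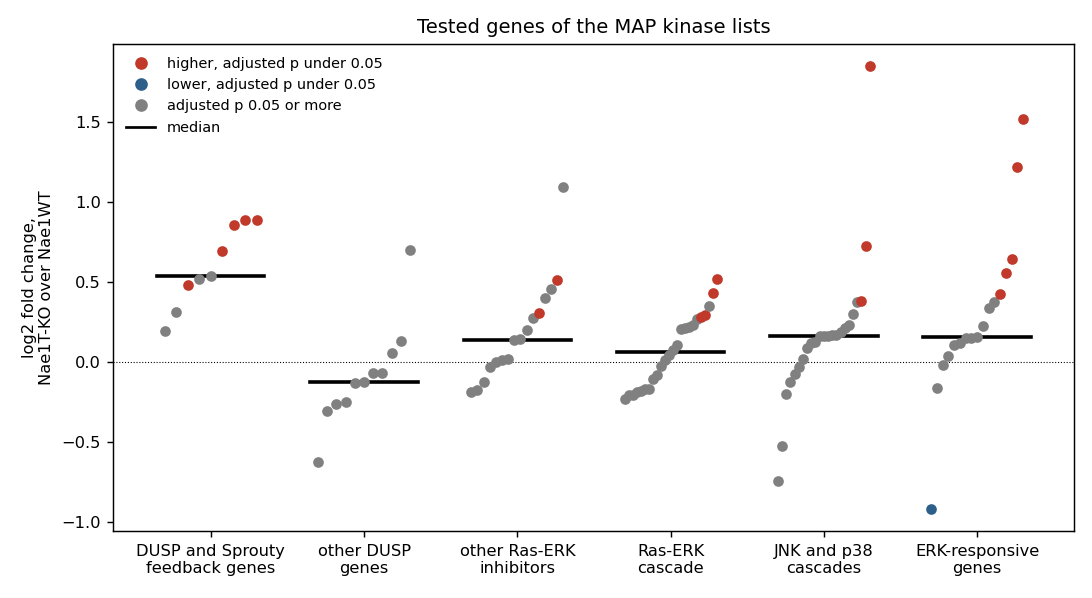
Log2 fold change of Nae1T-KO over Nae1WT (vertical axis) of each tested gene of the 9 feedback genes and of 5 other MAP kinase lists; red and blue points passed an adjusted p under 0.05, gray points did not, and the black line is the median. The median is 0.53 for the feedback genes and lies between -0.12 and 0.16 for the other lists.

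Of 17 tested genes known to respond to ERK, 5 rose, 1 fell and 11 did not pass, with a median log2 fold change of 0.15. Phlda1, an ERK-responsive gene of the pleckstrin homology-like family, had 703, 588 and 587 normalized counts across Nae1T-KO replicates 1 to 3, against 189, 257 and 209 across Nae1WT replicates 1 to 3. This was the largest change of the list, a log2 fold change of 1.52 ± 0.13 (SE; limma, adjusted p = 0.000161). Fosl1, which encodes the AP-1 subunit FRA1, had 97.7 ± 6.19 in Nae1T-KO and 41.9 ± 8.10 in Nae1WT (SD, n = 3 each; log2 fold change 1.22, adjusted p = 0.00469), a call lost in 1 of 19 alternatives. Ier3, an immediate early gene, rose by 0.65 (adjusted p = 0.0471), a call lost in 8 of 19 alternatives. Egr3, a zinc finger transcription factor gene, was the gene that fell, with 680.0, 988 and 1012 normalized counts across Nae1T-KO replicates 1 to 3, against 1885, 1522 and 1619 across Nae1WT replicates 1 to 3 (log2 fold change -0.92, adjusted p = 0.00583). The remaining called genes, Ier5 and Srf, had log2 fold changes of 0.56 and 0.42. Egr1 and Egr2, zinc finger genes of the same family as Egr3, had 0.15 and 0.11 and did not pass (adjusted p = 0.563 and 0.418).

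**Figure D5:**
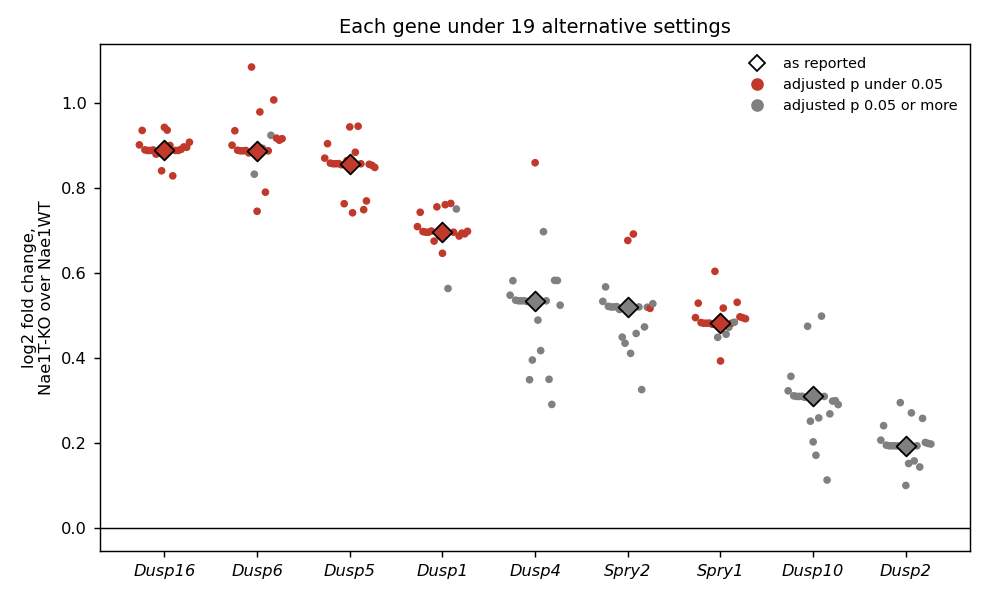
Log2 fold change of Nae1T-KO over Nae1WT (vertical axis) of each of the 9 genes as reported (diamond) and under 19 alternative settings (points); red marks an adjusted p under 0.05. All values are above 0, Dusp16 and Dusp5 are red in every setting, and the lowest value is 0.10, for Dusp2.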

How the data were processed

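Poly(A) RNA of 6 libraries was sequenced. Per the submitters' processing notes, bcl2fastq, HISAT2, mm10 and DESeq2 1.42.0 were used; the sources used here do not give the read counter, its annotation or its use of strand. The values the authors deposited are normalized counts, a signal that for every gene equals reads divided by a size factor per library. Whole reads could be recovered, with 100% of values within 0.01 read of a whole number, and the value of 1 read in each library was the reciprocal of its size factor recomputed with DESeq2. All 9 genes and the other gene lists were chosen with earlier results of these data known.

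Genes with a normalized count of at least 10 in at least 3 libraries were tested with limma 3.58.1 (R 4.3.3, trend and robust) on log2(normalized count + 1), without a replicate term, with Benjamini-Hochberg adjustment and a threshold of 0.05. The fit was tested on simulated data. On the recovered reads, edgeR 4.0.16 called 910 genes higher and 801 lower in Nae1T-KO, against 903 and 854 with limma. Of each list, the called genes averaging 50 or more were named, up to 4, by largest absolute log2 fold change; other genes were named to complete a list or family after their values were seen. The 19 alternatives covered scaling, filter, pseudocount, each library left out, replicate blocks, a sex term and 3 count models. Sequences and coordinates are from RefSeq GRCm38.p6; strand and exon lengths are from GENCODE M21. Counting limits precision most for Dusp1, with 82 to 193 reads per library.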

Additional observations from a re-analysis of the deposited data

How the results depend on the processing

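All 9 genes kept a positive log2 fold change under all 19 alternatives, and Dusp5, Dusp16 and Nae1 kept their calls in each. The number of the 9 genes called, 5 as reported, ranged from 2 to 7 with 1 library left out: leaving out Nae1T-KO replicate 2 gave 2, leaving out Nae1WT replicate 2 gave 3 and leaving out Nae1T-KO replicate 3 gave 7. Over all tested genes, 1757 calls as reported became 844 to 1790 with 1 library left out, with 1034 when Nae1T-KO replicate 2 was absent, and 844 and 954 when Nae1WT replicate 2 or 3 was. Of the other MAP kinase lists, 15 genes were called as reported, 7 to 19 with 1 library left out (7 without Nae1WT replicate 2) and 23 with total-count scaling. Total-count scaling split the calls over all genes into 1176 higher and 622 lower, against 903 and 854. The log2 ratio difference of Dusp5 to Dusp6 ranged from -0.32 to 0.20 with 1 library left out (0.03 and 0.20 without Nae1T-KO replicate 2 or 3, 0.16 without Nae1WT replicate 3), and that of Spry1 to Spry2 from -0.28 to 0.15 (0.15 and 0.01 without Nae1T-KO replicate 1 or 2; 0.11 and 0.01 without Nae1WT replicate 1 or 3). For Dusp2 to Dusp4 the range was -0.76 to -0.05 and for Dusp10 to Dusp16 -0.76 to -0.33. Same-numbered libraries did not deviate together (correlations of -0.13, -0.18 and -0.27). Each such pair was of opposite sex, so this check cannot decide whether the numbers pair the libraries. They were not taken as pairs in the main fit. With a replicate block by title number, 968 genes, 9 of the other MAP kinase lists and 5 of the 9 feedback genes were called. With the replicate block taken from library names, which leaves 4 libraries, these counts were 253, 3 and 2. In that block the calls of Dusp1 (0.75, limma adjusted p = 0.131), Dusp6 (0.92, adjusted p = 0.125), Spry1 (0.48, adjusted p = 0.107) and Fosl1 (1.04, adjusted p = 0.107) ended. Fewer libraries enter the fits that leave one out and the block by library name; the cause of the other changes was not tested.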
